A study of Mus musculus with 12 samples.

Results

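RNA was sequenced from the thymocytes of 3 NPM-ALK transgenic mice that lacked Dnmt1 in T cells (ALKKO) and compared, gene by gene, with RNA from the thymocytes of 3 control mice (Ctrl). These 6 libraries are 6 of the 12 in the series. The genes that differed were then divided with the help of 3 further thymus libraries, from mice with the same Dnmt1 deletion and no transgene (KO). Ctrl mice carried DNMT1 fl/fl alleles without a recombinase, KO mice carried DNMT1 fl/fl with CD4-CRE, and ALKKO mice carried NPM-ALK+ together with DNMT1 fl/fl and CD4-CRE, so that floxed Dnmt1 alleles were common to the 3 groups. The labels give ages of 25, 21 and 20 wk for Ctrl, 20, 20 and 21 wk for KO and 25, 21 and 19 wk for ALKKO, and all of these mice were male except the second KO mouse, a female. The paper gives a mixed genetic background for the mice. The transgene is a human NPM-ALK fusion driven by the Cd4 enhancer and promoter, and Cd4 regulatory sequence also drives the Cre recombinase, so both act in T lineage cells. The paper places the deletion of Dnmt1 at the double-positive stage and ties the start of NPM-ALK expression to late double-negative stages. RNA was taken from homogenized tissue, and other cells of the thymus contribute to it. Tumor cells of 3 NPM-ALK+ mice aged 22 to 31 wk without the deletion (ALK) entered the estimate of the spread, and their values are given where they bear on a gene. Ctrl libraries held 17957289 to 18864327 reads on genes, KO libraries 12739959 to 18279968 and ALKKO libraries 14914012 to 16735044. Of the 50600 genes in the files, 16052 passed the filter on low counts and were tested. Values are CPM, counts scaled to library size after TMM normalization, and are printed in the order of replicates 1, 2 and 3.

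DNMT1 is the maintenance DNA methyltransferase, which copies methylation onto the new strand after each round of replication. In somatic cells such methylation holds silent a set of germline genes with CpG-rich promoters, and dividing cells that lose DNMT1 are known to switch some of them on. NPM-ALK is an always-active tyrosine kinase of anaplastic large cell lymphoma, a T-cell cancer, and is known to signal through JAK3 and STAT3, whose target SOCS3 feeds back on the same pathway.

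Both engineered genes were examined first. Dnmt1 (chromosome 9, 20907209 to 20959888 on GRCm38, minus strand) was measured at 444, 487 and 400.0 CPM in Ctrl, 240.4, 206 and 244 in KO and 205, 222 and 244 in ALKKO. Every ALKKO and every KO mouse lay below every Ctrl mouse, at about the same level in both deleted groups. The log2 fold change in ALKKO against Ctrl was -0.99 (SE 0.23), with an adjusted p of 0.259 by edgeR's quasi-likelihood test over all genes, and the log2 difference between ALKKO and KO was -0.04 (SE 0.23). The adjusted p for Dnmt1 was 0.0102 when only Ctrl and ALKKO entered the edgeR fit and 0.00915 with DESeq2. Counts are per gene, so transcripts with and without the floxed exons are not separated. In bulk RNA, less message per cell and fewer cells that carry it cannot be told apart. Mouse Alk (chromosome 17, 71868972 to 72604627, minus strand), to which reads of the human transgene can map in part, was at 0.159, 0.107 and 0.431 CPM in Ctrl, 0.212, 0.172 and 0.270 in KO and 49.0, 54.8 and 55.0 in ALKKO. The ALKKO mice stood far above all others, with a log2 fold change of 7.79 (SE 0.44) against Ctrl and 7.86 (SE 0.45) against KO. Both genes followed the labelled genotypes in all 9 thymus libraries.

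In ALKKO against Ctrl, 29 of 16052 genes (0.181%) passed an adjusted p of 0.05 and an absolute log2 fold change of 1 in edgeR's quasi-likelihood F test, adjusted by the Benjamini-Hochberg method. Among them, 28 were higher (0.174% of genes tested) and 1 was lower (0.00623%). An unadjusted p under 0.05 was found for 510 genes, 355 of them higher and 155 lower. Genes rarely transcribed in thymocytes made up most of the list, since 23 of the 29 averaged under 1 CPM in Ctrl, and in 15 each Ctrl library held at most 3 reads. The 29 genes included 22 protein-coding genes, and 3 lay on the X chromosome (Ccnb3, Pet2 and 4930550L24Rik). The shares of all tested genes with these Ctrl levels, that biotype or that chromosome were not computed. A gene near 0 in Ctrl passes the low-count filter mainly through another group in which it is high. These counts therefore do not set the 29 apart from other tested genes.

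The KO libraries divided these genes. A gene was taken as shared with the deletion where every KO library lay beyond every Ctrl library in the direction of the ALKKO change, and as seen only with the transgene where this was not so and every ALKKO library lay beyond every KO library. The rule is a description without a test, and both comparisons use the same Ctrl mice. It placed 25 of the 29 genes with the deletion, 24 higher and 1 lower, where 11.6% of all tested genes met the same condition. It placed 4 genes with the transgene, Alk, Lrrc66, Gm17910 and Cpsf4l, where 4.27% of tested genes met it. ALKKO and Ctrl libraries did not overlap in 2807 tested genes (17.5%), all 29 called genes among them, and 29.6% of these 2807 met the first condition and 11.3% the second. Leaving out the second KO library moved Cpsf4l to the shared genes (26 and 3), and leaving out the third KO library changed neither number.

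**Figure D1:**
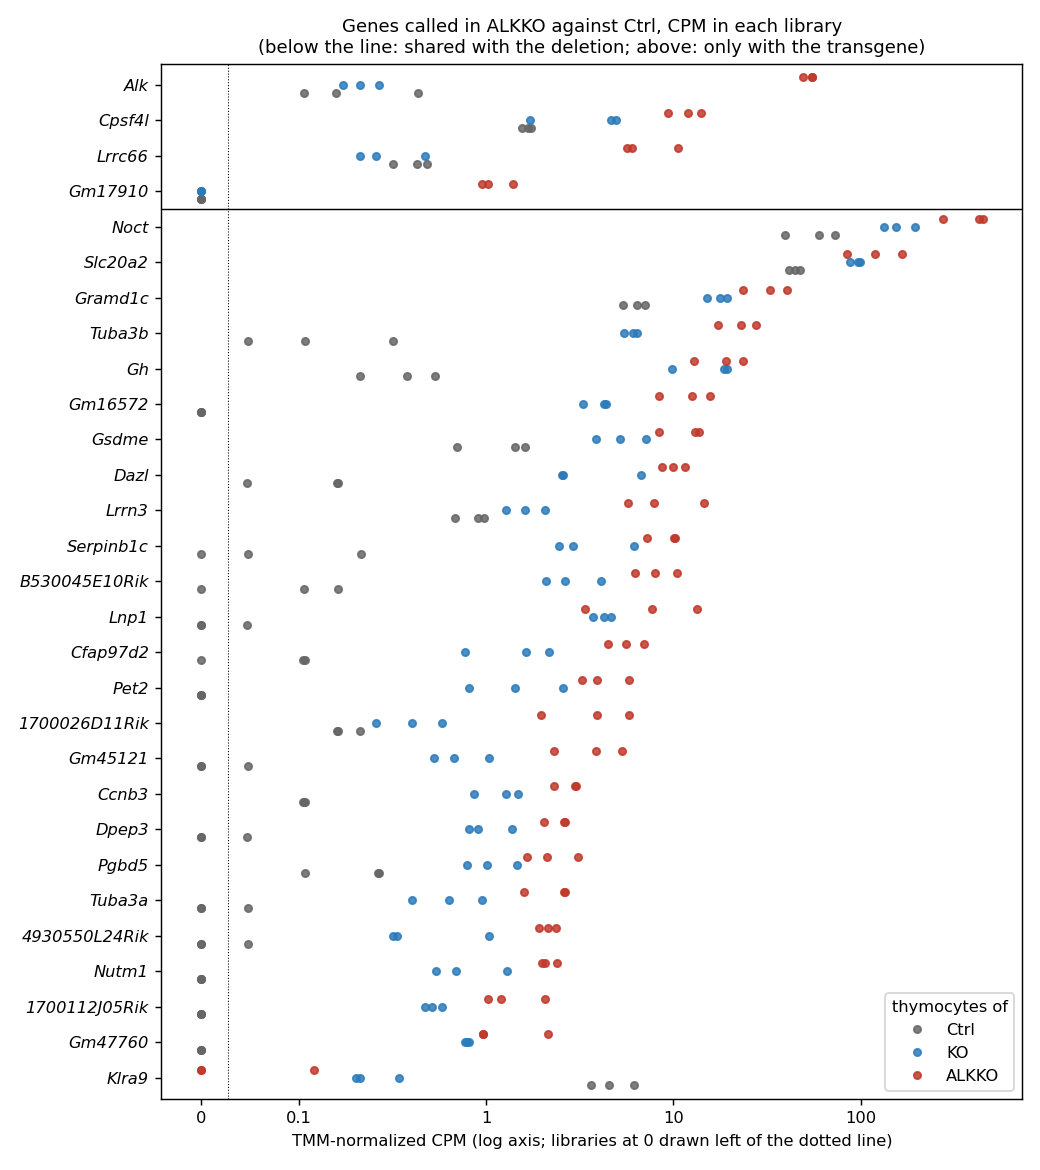
CPM of the 29 genes in each Ctrl, KO and ALKKO library on a log axis, 1 row per gene and 1 point per mouse, with libraries at 0 drawn left of the dotted line. Below the horizontal line, the KO points of the 24 higher genes lie between the Ctrl and ALKKO points in most rows, and Klra9 at the bottom runs the other way. Above it stand Alk, Cpsf4l, Lrrc66 and Gm17910, with KO points at or near those of Ctrl except for Cpsf4l.

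The largest named group among the shared genes belonged to the germline. Dazl, an RNA-binding protein gene needed for germ cell development, was at 0.0529, 0.161 and 0.162 CPM in Ctrl, 2.54, 6.72 and 2.56 in KO and 8.72, 11.5 and 9.90 in ALKKO. All deleted mice were above all Ctrl mice, and the ALKKO mice were the highest. With every Ctrl library at no more than 3 reads, Dazl was at least 62.7-fold higher in ALKKO (adjusted p = 0.0317, edgeR). Tuba3b, an alpha-tubulin gene of the testis, was at 0.317, 0.0536 and 0.108 CPM in Ctrl, 5.46, 6.11 and 6.40 in KO and 23.1, 27.4 and 17.3 in ALKKO. The 3 groups did not overlap, and the log2 fold change was 7.07 (SE 0.68, adjusted p = 0.00274, edgeR) in ALKKO and 5.16 (adjusted p = 0.0398, edgeR) in KO against Ctrl. Its close copy Tuba3a was lower in level but ordered in the same way, with at most 0.0539 CPM in Ctrl, 0.405 to 0.947 in KO and 1.60 to 2.63 in ALKKO (adjusted p = 0.0286, edgeR). Reads that map to more than 1 place were not counted by the authors, so the counts of both copies are uncertain.

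The proximal promoters of Dazl and Tuba3b are printed because these genes carry the germline result. They run 5′ to 3′ on the gene's strand from 250 bases before to 50 bases after the annotated start, are taken from RefSeq on GRCm38.p6, and have each CpG in capitals. Dazl has 28 CpG in chr17:50293571-50293870 (minus strand) and Tuba3b has 16 in chr6:145615713-145616012 (plus strand).
Dazl: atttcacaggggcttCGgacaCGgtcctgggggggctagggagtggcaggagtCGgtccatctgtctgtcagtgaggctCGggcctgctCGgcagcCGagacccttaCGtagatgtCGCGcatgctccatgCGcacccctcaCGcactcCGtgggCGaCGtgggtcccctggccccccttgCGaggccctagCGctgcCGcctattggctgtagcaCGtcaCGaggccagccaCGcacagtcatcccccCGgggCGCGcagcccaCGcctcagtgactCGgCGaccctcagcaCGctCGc
Tuba3b: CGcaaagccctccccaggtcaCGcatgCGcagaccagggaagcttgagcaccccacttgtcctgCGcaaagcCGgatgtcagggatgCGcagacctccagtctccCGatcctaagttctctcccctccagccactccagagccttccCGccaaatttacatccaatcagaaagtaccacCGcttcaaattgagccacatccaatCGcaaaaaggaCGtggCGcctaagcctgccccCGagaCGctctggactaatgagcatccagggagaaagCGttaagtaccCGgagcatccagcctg
RefSeq promoters were found for 19 of the 29 genes. The 18 promoters of the shared genes that were higher (15 genes) held 0 to 43 CpG with a median of 10.5, against a median of 7 over all 32851 mouse promoters of this length and 19 over those of tested genes. At the ends of that range were Pgbd5 with 43 and one of the starts of Serpinb1c with 0, so the shared genes did not have one promoter type. The STAT motif TTCNNNGAA, which reads the same on both strands, was in 0 of the 18, while 8.30% of all promoters and 6.85% of those of tested genes hold it. The E-box CACGTG was in 2 of the 18 (7.15% of all promoters, 9.22% of those of tested genes), both of them starts of Gramd1c. Either E2F-type motif, TTCCCGC or TCCCGCC on either strand, was in 3 of the 18, or 16.7% (13.3% of all, 22.1% of those of tested genes), those of Pgbd5, Tuba3a and Tuba3b.

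Other called genes of the germline list were low but detected in each deleted mouse. Ccnb3, a cyclin of meiotic cells, was at 0.106 to 0.108 CPM in Ctrl, 0.861 to 1.48 in KO and 2.30 to 3.03 in ALKKO, at least 17.3-fold higher in ALKKO than in Ctrl (adjusted p = 0.0118, edgeR). Dpep3, a dipeptidase gene of the testis, reached 2.04 to 2.63 CPM in ALKKO and 0.809 to 1.38 CPM in KO, with a single Ctrl library above 0 at 0.0529 CPM. Nutm1, a testis gene known as a fusion partner in NUT carcinoma, was at 0 in every Ctrl mouse, from 0.539 to 1.29 CPM in KO and from 1.98 to 2.39 in ALKKO. Dpep3 and Nutm1 were thus at least 15.1-fold and 13.4-fold higher in ALKKO (adjusted p = 0.0286 and 0.0317, edgeR). The list of 61 germline and meiosis genes was assembled with earlier results of these data known, and some of its members were on it for that reason. Of these, 35 passed the low-count filter, 6 were called higher and 0 lower, and 15 were higher and 0 lower at an unadjusted p under 0.05. Among all tested genes, 0.174% were called higher, and 2.21% were higher and 0.966% lower at that unadjusted p. Among the 26 untested members, 15 had more reads in ALKKO, 8 had more in Ctrl, 1 had as many in both and 2 had none. A low gene passes the filter mainly through the group in which it is high, so these counts do not speak for the list as a whole. Other members had averages no higher in ALKKO than in Ctrl, such as the synaptonemal complex gene Sycp3 (1.27 CPM on average in Ctrl, 0.825 in ALKKO) and the meiotic nuclease gene Spo11 (190.8 and 161.8 CPM).

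Gh, the growth hormone gene of the pituitary, was at 0.211, 0.536 and 0.377 CPM in Ctrl, 18.7, 9.82 and 19.3 in KO and 23.6, 12.9 and 19.16 in ALKKO. Both deleted groups lay far above Ctrl and overlapped each other. Its log2 fold change was 5.60 (SE 0.49, adjusted p = 0.00141, edgeR) in ALKKO and 5.38 (adjusted p = 0.00574, edgeR) in KO against Ctrl, and the log2 difference between ALKKO and KO was 0.22 (SE 0.39). Gm16572, annotated as antisense to Med6, was at 0 in the Ctrl mice, 4.24, 4.39 and 3.30 CPM in KO and 15.6, 12.6 and 8.37 CPM in ALKKO. It was at least 76.1-fold higher in ALKKO (adjusted p = 0.00141, edgeR), while Med6 itself had a log2 fold change of -0.18. The strand setting of the counting is not given in the sources used here. Gh, Gm16572 and Tuba3b were the 3 genes called in KO against Ctrl (0.0187% of genes tested), where 886 genes (5.52%) had an unadjusted p under 0.05.

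A second set of shared genes was already transcribed in control thymocytes. Noct encodes nocturnin, a rhythmically expressed enzyme, and had the highest level of the 24, at 59.7, 72.7 and 39.3 CPM in Ctrl, 195, 134 and 153 in KO and 451, 427 and 273 in ALKKO. The groups formed 3 separate steps, and the mean in ALKKO was 6.70-fold that in Ctrl (log2 fold change 2.75, SE 0.28, adjusted p = 0.00374, edgeR). Noct was the only one of the 29 genes called with at least 10 counts required in every library. Gramd1c, a gene of sterol transfer, was at 5.41 to 7.06 CPM in Ctrl, 15.2 to 19.3 in KO and 23.4 to 40.3 in ALKKO (log2 fold change 2.36, SE 0.34, adjusted p = 0.0286, edgeR). Gsdme, which encodes a pore-forming gasdermin of inflammatory cell death, was at 0.697 to 1.62 CPM in Ctrl, 3.88 to 7.16 in KO and 8.37 to 13.7 in ALKKO (log2 fold change 3.22, SE 0.49, adjusted p = 0.0326, edgeR). Slc20a2, a phosphate transporter gene, was at 41.5 to 47.2 CPM in Ctrl, 87.5 to 98.5 in KO and 84.0 to 166 in ALKKO, and its deleted groups overlapped. Its log2 fold change of 1.47 (SE 0.23, adjusted p = 0.0366, edgeR) was the smallest of the 29.

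Lrrn3, a neuronal leucine-rich repeat gene, and the antisense gene 1700026D11Rik met the sharing rule by narrow margins. Lrrn3 was at 0.687, 0.911 and 0.970 CPM in Ctrl, 1.27, 2.07 and 1.62 in KO and 14.5, 5.74 and 7.86 in ALKKO. 1700026D11Rik was at 0.161 to 0.211 CPM in Ctrl, 0.258 to 0.583 in KO and 1.97 to 5.81 in ALKKO. KO lay close to Ctrl for both, and their log2 differences between ALKKO and KO, 2.50 (SE 0.47) and 3.18 (SE 0.67), were the largest of the 24. Lrrn3 lies within Immp2l on the opposite strand, and Immp2l had a log2 fold change of 0.97 in ALKKO against Ctrl (adjusted p = 1, edgeR).

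The other shared genes that were higher rose from near 0. Serpinb1c, a protease inhibitor gene, reached 7.22 to 10.2 CPM in ALKKO and 2.44 to 6.20 CPM in KO, from at most 0.216 CPM in Ctrl. Pgbd5, derived from a piggyBac transposase, was at 1.66 to 3.11 CPM in ALKKO, 0.795 to 1.46 CPM in KO and at most 0.268 CPM in Ctrl. Lnp1 ranged from 3.38 to 13.4 CPM in ALKKO and overlapped with the 3.71 to 4.65 CPM of KO. The X-linked Pet2 was at 0 in Ctrl, from 0.809 to 2.58 CPM in KO and from 3.26 to 5.80 in ALKKO, and the X-linked 4930550L24Rik reached 1.92 to 2.36 CPM in ALKKO and 0.318 to 1.03 CPM in KO. The remaining 5 were Cfap97d2 and the noncoding B530045E10Rik, Gm45121, 1700112J05Rik and Gm47760, of which B530045E10Rik was the highest at 6.26 to 10.4 CPM in ALKKO and 2.09 to 4.13 CPM in KO. Their adjusted p in ALKKO against Ctrl lay between 0.00925 (B530045E10Rik, edgeR) and 0.0477 (Gm47760, edgeR).

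Klra9 was the gene that fell. It belongs to the Ly49 family of natural killer cell receptors and was at 6.18, 3.65 and 4.53 CPM in Ctrl, 0.212, 0.344 and 0.202 in KO and 0.121, 0 and 0 in ALKKO. All deleted mice lay below all Ctrl mice, and the level in ALKKO was at least 26.0-fold lower (adjusted p = 0.0326, edgeR). The family holds near-identical copies, so its counts are uncertain. The mice were of mixed genetic background, and whether strain differences enter these counts was not tested. Of 28 listed killer cell lectin-like receptor genes, 19 were tested, 1 was called lower and 0 higher, and 6 were lower and 2 higher at an unadjusted p under 0.05. Of all tested genes, 0.00623% were called lower and 0.174% higher, and 0.966% were lower and 2.21% higher at that unadjusted p. With only Ctrl and ALKKO in the edgeR fit, 4 of the family were called lower, Klra9, Klra13-ps (adjusted p = 0.0289), Klra7 (0.0347) and Klri2 (0.0434), and Klra17 was called higher (0.0497). DESeq2 called Klra9, Klra13-ps and Klra7 lower and none higher. Over all genes, the edgeR fit of only Ctrl and ALKKO called 94 higher and 4 lower (0.629% in all), and DESeq2 called 91 higher and 7 lower (0.611%). The median log2 fold change of the 19 was -0.62, beside 0.01 over all tested genes. Klra13-ps was at 3.81, 3.97 and 2.37 CPM in Ctrl, 0.212, 2.07 and 0.405 in KO and 0.182, 0 and 0 in ALKKO (adjusted p = 0.195 in the edgeR fit of 12 libraries). The summed level of the 19 genes was 36.6 to 52.6 CPM in Ctrl, 20.7 to 34.0 in ALKKO, 24.3 and 17.7 in KO replicates 1 and 3 and 97.4 in KO replicate 2.

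ALKKO was set against KO directly to see whether the shared genes differed between both deleted genotypes. In that comparison 1 gene was called, Alk (0.00623% of genes tested), and 432 (2.69%) had an unadjusted p under 0.05. None of the 24 shared genes that were higher passed, with unadjusted p under 0.05 for 17 of them. The ALKKO mean was above the KO mean in all 24 (56.7% of tested genes have an ALKKO mean beyond the KO mean in the direction of their ALKKO change), by 1.16 to 9.38 times with a median of 2.55. In 21 of them every ALKKO mouse was above every KO mouse (4.09% of tested genes), the exceptions being Gh, Lnp1 and Slc20a2. The genes were chosen for being high in ALKKO, which raises these values. Chosen instead by KO against Ctrl, the 20 genes with the smallest p among those higher in KO had a higher level in ALKKO than in KO in 19 cases, with a median log2 difference of 1.31. These 20 are not a separate set of genes, since they include members of the 24 such as Gh, Gm16572, Tuba3b and Lnp1. The overlap was not counted, so the 19 cases are not independent of the values above. Of the first 50, 36 were higher in ALKKO (median 1.09), and of the first 100 the number was 43, with a median of -0.52. Choosing genes for being high in KO lowers these values in turn, and the median over all tested genes was -0.017. In KO against Ctrl, 6 of 9 B cell and plasma cell markers and 6 of 7 muscle markers were higher at an unadjusted p under 0.05. Their median log2 differences between ALKKO and KO were -2.70 and -6.51. Whether such genes account for the fall to 43 was not tested.

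**Figure D2:**
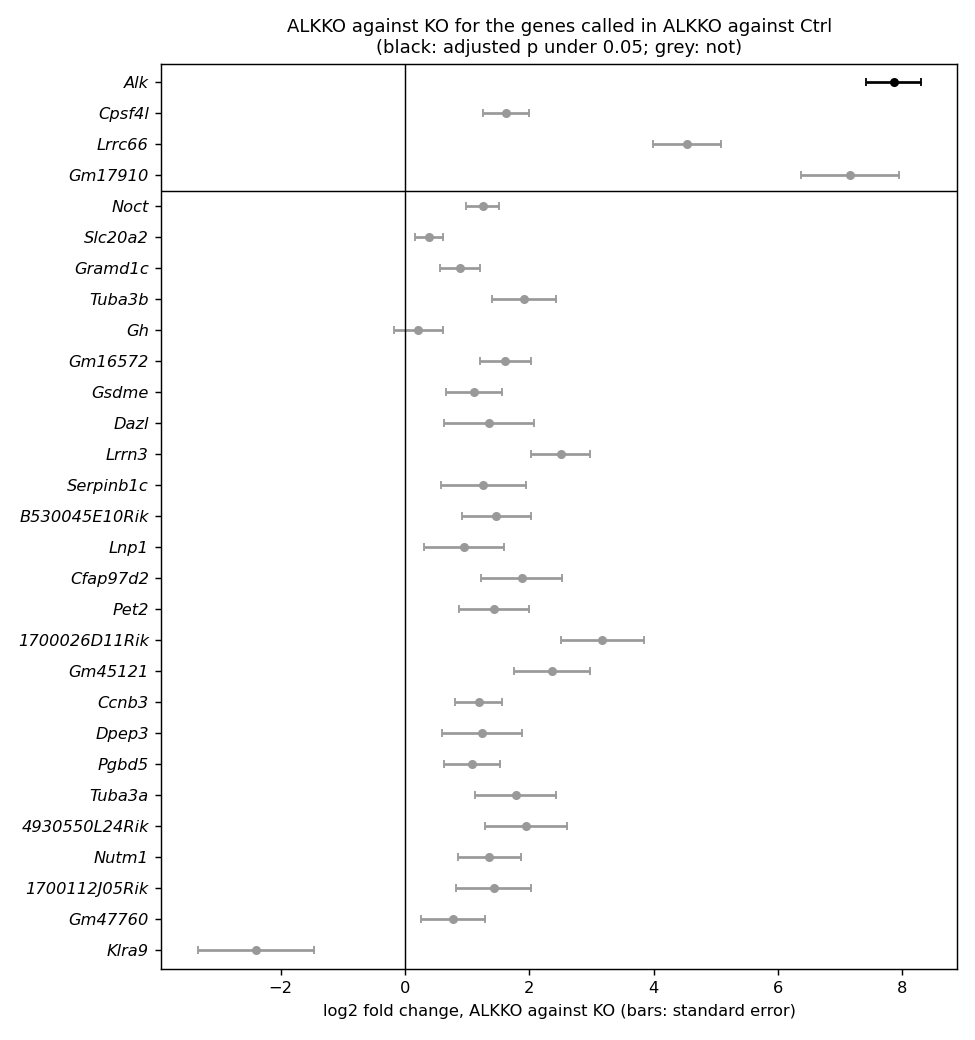
log2 fold change of ALKKO against KO with its standard error for the 29 genes called in ALKKO against Ctrl, in the same order as in the plot of CPM. Black marks an adjusted p under 0.05, reached by Alk, and the 24 higher shared genes lie to the right of 0, from 0.22 for Gh to 3.18 for 1700026D11Rik.

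The same genes were mostly silent in the ALK tumor cells, which have the transgene and no deletion. Of the 24, 22 had every ALK mouse below every ALKKO mouse, 22 had every ALK mouse below every KO mouse and 20 were under 1 CPM in each ALK mouse. The share of all tested genes that meets these conditions was not computed. The 24 were chosen for being high in ALKKO and above Ctrl in KO, so the counts do not set them apart from other genes. The median of the mean levels of the 24 was 0.0742 CPM in ALK, 0.0897 CPM in Ctrl, 1.63 in KO and 6.90 in ALKKO. Tumor cells and thymocytes differ in many genes besides, so these are values side by side and not a test.

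Of the genes seen only with the transgene, Lrrc66, a leucine-rich repeat protein gene, was at 0.317, 0.429 and 0.485 CPM in Ctrl, 0.212, 0.258 and 0.472 in KO and 10.6, 6.04 and 5.68 in ALKKO. ALKKO stood alone, and its log2 fold change was 4.16 (SE 0.53, adjusted p = 0.0189, edgeR) against Ctrl and 4.54 (SE 0.55, adjusted p = 0.0524, edgeR) against KO. The ALK tumor cells had 0.470, 0.175 and 0.547 CPM, at the level of Ctrl. Cpsf4l, related to a subunit of the pre-mRNA cleavage machinery, was at 1.74, 1.55 and 1.67 CPM in Ctrl, 4.93, 1.72 and 4.65 in KO and 14.1, 9.33 and 12.01 in ALKKO. KO replicates 1 and 3 were above Ctrl and replicate 2 was not, and in the ALK tumors the gene was at 415, 781 and 424 CPM. Its log2 fold change in ALKKO was 2.83 (SE 0.39, adjusted p = 0.0286, edgeR) against Ctrl and 1.63 (SE 0.37, adjusted p = 1, edgeR) against KO. The processed pseudogene Gm17910 (chromosome 8, 88728203 to 88729040) was at 0 in all Ctrl and KO mice, at 1.39, 0.957 and 1.02 CPM in ALKKO and at 0.739, 0.960 and 0.782 CPM in ALK. It was at least 7.01-fold higher in ALKKO than in Ctrl (adjusted p = 0.0317, edgeR). Its transcript aligned to that of Npm1, the mouse counterpart of the NPM part of the fusion, with 79.9% identity over 890 alignment columns, gaps included. Npm1 itself had a log2 fold change of -0.27 (SE 0.20). Whether reads of the transgene were counted on Gm17910 was not tested.

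In the JAK and STAT pathway, whether the feedback inhibitor gene Socs3 and the kinase gene Jak3 passed depended on the fit. No gene of the pathway was called by edgeR with all 12 libraries, DESeq2 on the same libraries called Socs3 (adjusted p = 8.12e-06) and Jak3 (0.00752), and edgeR on the 9 thymus libraries called Socs3 (0.0451). Over all genes, these alternatives called 0.611% (DESeq2) and 0.338% (9 thymus libraries). Socs3 was at 32.5, 28.1 and 26.4 CPM in Ctrl, 29.8, 80.9 and 19.14 in KO and 304, 236 and 238 in ALKKO. Every ALKKO mouse lay above every other thymus library, and KO replicate 2, the library with the highest B cell and plasma cell marker sum, was the highest of the rest. The log2 fold change was 3.16 (SE 0.58, adjusted p = 0.0958, edgeR) against Ctrl and 2.59 (SE 0.57, adjusted p = 1, edgeR) against KO. The RefSeq promoter of Socs3 (chr11:117969317-117969616, GRCm38.p6, minus strand) is printed because SOCS3 was named above as a known target of STAT3. It holds 31 CpG and 1 match to TTCNNNGAA, in capitals.
Socs3: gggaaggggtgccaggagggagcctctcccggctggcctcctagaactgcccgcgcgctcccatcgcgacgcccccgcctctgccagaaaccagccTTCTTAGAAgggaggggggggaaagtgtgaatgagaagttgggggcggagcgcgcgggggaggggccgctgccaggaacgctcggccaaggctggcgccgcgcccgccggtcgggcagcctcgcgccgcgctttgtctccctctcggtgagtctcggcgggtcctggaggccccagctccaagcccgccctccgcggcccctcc
A match is a description of the letters and not evidence of binding. Of the 4 promoters of called genes seen only with the transgene, 1 held the motif, a start of Cpsf4l (6.85% of those of tested genes). The promoters of Jak3 and Gzma held 0 matches. Whether STAT factors act on Socs3 in these cells was not tested. Jak3, the kinase of cytokine receptors with the common gamma chain, was at 69.3, 62.1 and 62.8 CPM in Ctrl, 75.5, 157 and 59.9 in KO and 371.7, 183 and 258 in ALKKO, with no overlap between ALKKO and the others (log2 fold change 2.06, SE 0.49, adjusted p = 0.319, edgeR). Of 42 listed JAK and STAT genes, 41 were tested, 0 were called in the fit of 12 libraries, and 4 were higher and 0 lower at an unadjusted p under 0.05 (Socs3, Jak3, Pim1 and Stat3). Over all tested genes, 2.21% were higher and 0.966% lower at that unadjusted p. The median log2 fold change of the 41 was -0.0024.

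Of the effector and lymphoma lists, single genes differed and most members did not pass. Gzma, a protease of cytotoxic granules, was at 44.8, 58.8 and 47.9 CPM in Ctrl, 53.7, 43.1 and 57.4 in KO and 378, 337 and 260 in ALKKO. All ALKKO values were above all others, and the log2 fold change was 2.69 (SE 0.58), with an adjusted p of 0.199 by edgeR with 12 libraries, 0.00225 with the 9 thymus libraries and 0.000463 by DESeq2. Of 25 listed cytotoxic granule genes, 15 were tested, 0 were called, and 1 was higher (Gzma) and 1 lower (Fasl) at an unadjusted p under 0.05, with a median log2 fold change of -0.03. For this list and the lymphoma list below, the shares over all tested genes were 0.181% called, and 2.21% higher and 0.966% lower at that unadjusted p. Tnfrsf8, which encodes CD30, the defining antigen of anaplastic large cell lymphoma, was at 11.7 to 14.7 CPM in Ctrl, 13.5, 7.06 and 11.1 in KO and 35.0, 20.8 and 37.0 in ALKKO (log2 fold change 1.27, SE 0.32, adjusted p = 0.378 by edgeR and 0.0237 by DESeq2). Cdk6, a cell cycle kinase gene, was at 140, 141 and 141 CPM in Ctrl, 135, 80.3 and 144 in KO and 285, 229 and 271 in ALKKO (log2 fold change 0.89, SE 0.37, adjusted p = 1, edgeR). Of 32 listed genes of human lymphoma of this type, 30 were tested, 1 was called (Alk), and 3 were higher and 0 lower at an unadjusted p under 0.05 (Alk, Tnfrsf8 and Cdk6), with a median of 0.15. Myc had a log2 fold change of -0.09 (SE 0.20), Cdk4 of -0.04 (SE 0.16), Ccnd1 of 0.35 (SE 0.74) and the proliferation marker Mki67 of 0.08 (SE 0.36).

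Fitting Ctrl and ALKKO alone, so that the spread of the tumors and of the KO mice no longer entered, called 98 of 15569 genes (0.629%), 94 higher and 4 lower, and 28 of the 29 genes above were among them. By the same division, 57 of the 98 were shared with the deletion, 31 were seen only with the transgene and 10 were undivided. Those seen only with the transgene included Socs3, Jak3 and Gzma (adjusted p = 0.000246, 0.0248 and 0.000984 in this edgeR fit). Among them too, named after their values were seen, were Bcl3, a regulator of NF-kappaB, at 17.9, 15.1 and 18.6 CPM in Ctrl and 80.2, 89.7 and 84.3 in ALKKO (adjusted p = 0.000297), and Map3k8, a kinase upstream of ERK, at 8.84 to 10.2 and 35.3 to 54.7 CPM (adjusted p = 0.00401). Bcl3 was at 14.6, 63.5 and 8.76 CPM in KO, with replicate 2 apart from replicates 1 and 3. Bcl3 was not called by edgeR with all 12 libraries (adjusted p = 0.9998) or the 9 thymus libraries (0.437), nor by DESeq2 (0.507). Map3k8 was called by DESeq2 (adjusted p = 0.00307), but not by edgeR with all 12 libraries (0.2555) or the 9 thymus libraries (0.134). The shared genes gained in this fit included further germline genes, also named after their values were seen. Syce1, of the synaptonemal complex, was at 0.106 to 0.214 CPM in Ctrl, 0.583 to 1.89 in KO and 1.97 to 2.68 in ALKKO, and Tex19.1, Tex19.2, Tex13b and Gpat2 were called as well. In all, 12 genes of the germline list were among the 98, 11 of them shared with the deletion. The other was Trim66, at 0.740, 1.07 and 0.701 CPM in Ctrl, 0.901, 0.861 and 0.809 in KO and 12.5, 5.86 and 7.60 in ALKKO (adjusted p = 0.0122 in this fit and 0.332 with all 12 libraries).

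**Figure D3:**
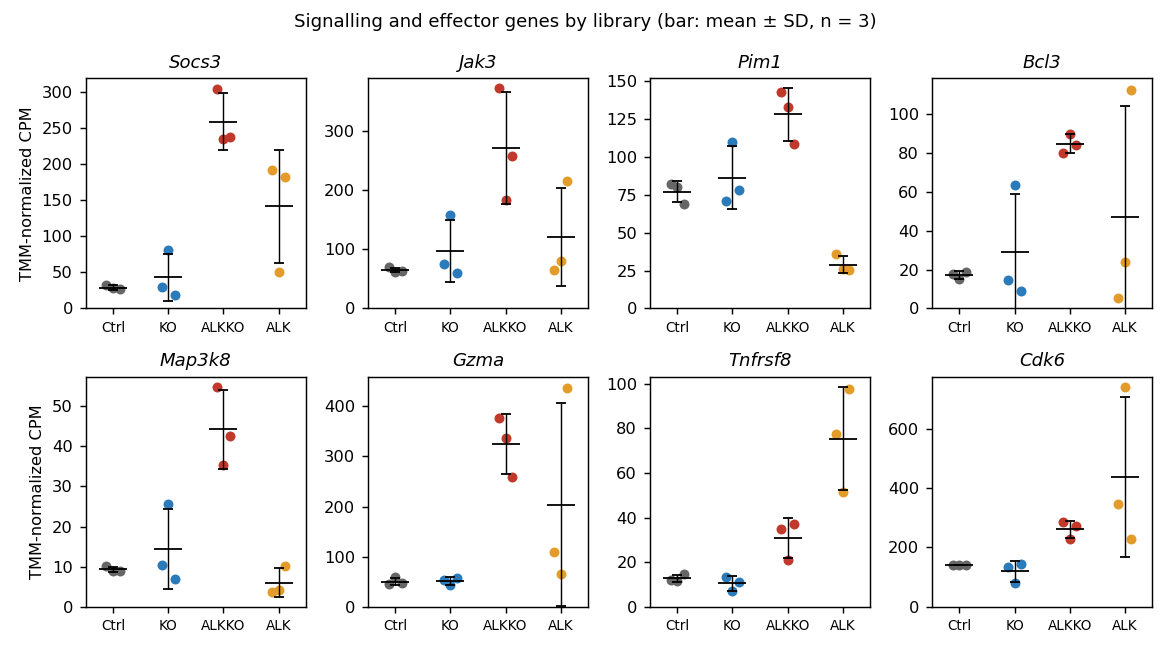
TMM-normalized CPM of 8 genes in every Ctrl, KO, ALKKO and ALK library, with the mean and SD of 3 mice. The ALKKO points of Socs3, Jak3, Bcl3, Map3k8, Gzma, Tnfrsf8 and Cdk6 lie above all Ctrl and KO points, and for Pim1 the second KO mouse (110 CPM) reaches the lowest ALKKO mouse (109 CPM).

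For 3 other genes that the study names in its RNA data, ALKKO did not overlap with Ctrl or KO. Tha1, a threonine aldolase gene, was at 6.65 to 7.17 CPM in Ctrl, 6.41 to 9.99 in KO and 16.3 to 35.9 in ALKKO (log2 fold change 1.97, SE 0.33, adjusted p = 0.0549 by edgeR with 12 libraries). It was called by DESeq2 (adjusted p = 3.18e-06) and by edgeR with only the 2 groups (0.0289) or the 9 thymus libraries (0.0490). The antisense gene 5830468F06Rik was at 2.86 to 5.09, 3.10 to 6.89 and 27.4 to 46.1 CPM in the same groups (log2 fold change 3.24, SE 0.74, adjusted p = 0.255 by edgeR with 12 libraries), and was called in the same alternatives (adjusted p = 0.000827, 0.00634 and 0.0172). Gm5611 had 0 reads in KO, a single Ctrl library above 0 at 0.106 CPM and 0.766 to 1.03 CPM in ALKKO (adjusted p = 0.262, edgeR). All 3 met the condition for genes seen only with the transgene.

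The remaining lists held no gene called by edgeR with all 12 libraries in ALKKO against Ctrl, where 2.21% of tested genes were higher and 0.966% lower at an unadjusted p under 0.05. Of 41 proliferation genes, 40 were tested and none reached an unadjusted p under 0.05, with a median log2 fold change of -0.14. All 29 p53 target genes were tested, and none did so either (median -0.0084). Of 43 interferon-stimulated genes, 40 were tested and 3 were higher at an unadjusted p under 0.05, Gbp2, Gbp7 and the nucleic acid sensor gene Zbp1 (median 0.16). In the fit of only Ctrl and ALKKO, Zbp1 (log2 fold change 1.07, adjusted p = 0.0496) and Gbp3 (1.09, adjusted p = 0.0208) of this list were called by edgeR, the latter named after its values were seen. All 21 genes of the DNA methylation machinery were tested, and 3 were lower, Dnmt1, Mbd3 and Setdb1 (median -0.13). Of 40 imprinted genes, 28 were tested, with Mest higher and Nnat lower at an unadjusted p under 0.05 (median 0.0020).

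The thymocyte label was checked against 10 marker lists. Double-positive thymocyte markers such as Cd8b1 summed to 7130 to 8197 CPM in Ctrl and 5935 to 6926 in ALKKO, with 0 of 9 tested genes below an unadjusted p of 0.05. Thymic epithelial markers summed to 2031 to 2300 CPM in Ctrl and 1341 to 1577 in ALKKO (1 of 11 lower at an unadjusted p under 0.05, Trpm5). Markers of natural killer and innate-like cells summed to 266 to 379 CPM in Ctrl and 552 to 610 in ALKKO, and 2 of 11 were higher at an unadjusted p under 0.05, Gzma and Ncr1, the latter at 0.162 to 0.214 CPM in Ctrl and 0.908 to 3.38 in ALKKO. Gzma made up the rise of that sum, since the other 10 genes summed to 218 to 320 CPM in Ctrl and 232 to 292 in ALKKO. The median log2 fold change of the 11 was -0.03. Double-negative and early thymocyte markers summed to 2360 to 2588 CPM in Ctrl and 2632 to 3177 in ALKKO, and macrophage, granulocyte and dendritic cell markers to 831 to 980 and 1063 to 1176, with 0 of 11 tested genes under an unadjusted p of 0.05 in either list. Red blood cell genes varied within ALKKO, at 150, 1905 and 1845 CPM, against 388 to 584 CPM in Ctrl. Of the KO libraries that decide the division, 2 stood apart, since replicate 2 had 9289 CPM of B cell and plasma cell markers and 220 CPM of thymic epithelial markers, and replicate 3 had 5364 CPM of muscle genes, including Nppa, against at most 25.1 CPM in the other 8 thymus libraries. Double-positive thymocyte markers summed to 3030 CPM in KO replicate 2, against 7299 and 7276 CPM in KO replicates 1 and 3. The paper describes the second KO sample as an apparent outlier in its estimate of cell types. The division without KO replicate 2 or without KO replicate 3 is given above.

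**Figure D4:**
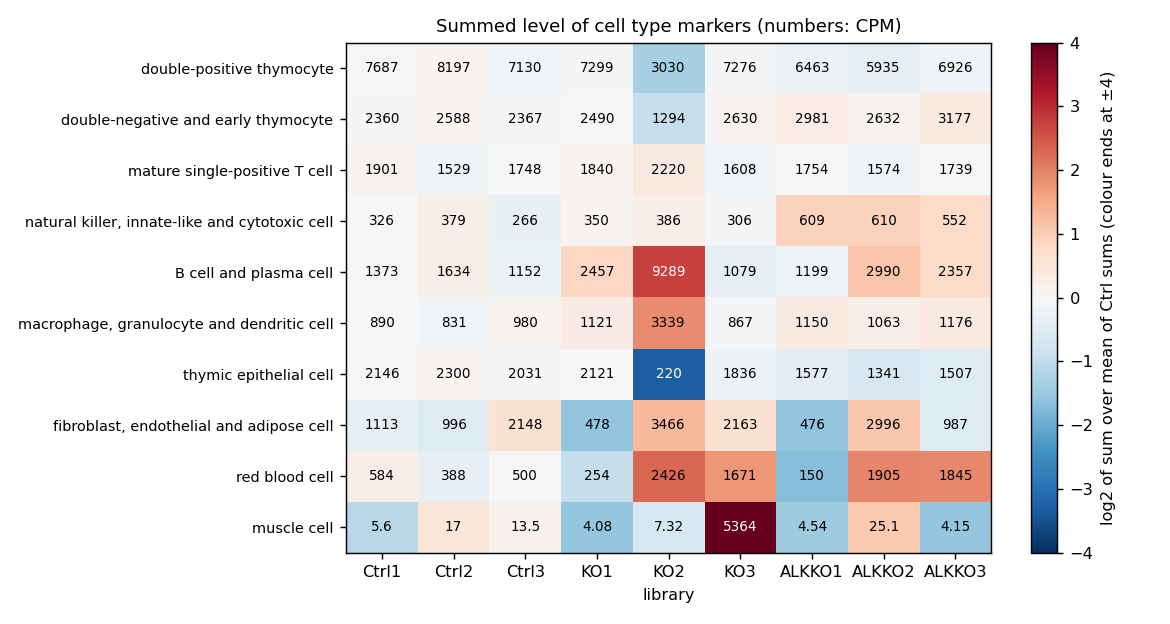
Summed CPM of the tested genes of 10 cell type marker lists in each thymus library, coloured by the log2 ratio to the mean of the 3 Ctrl sums with the colour scale ending at 4 in either direction. KO replicates 2 and 3 stand out in B cell and plasma cell (9289 CPM) and muscle (5364 CPM) genes, and ALKKO is above Ctrl in the natural killer, innate-like and cytotoxic list in each mouse through Gzma alone, the other 10 genes overlapping at 218 to 320 CPM in Ctrl and 232 to 292 in ALKKO.

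The number of called genes in ALKKO against Ctrl depended on the fit. It was 54 with only the 9 thymus libraries, 98 with DESeq2's Wald test, 11 with edgeR's test against the fold change threshold itself and 5 to 9 when 1 Ctrl or ALKKO mouse was left out. No called gene changed sign in any alternative. Alk, Gh, Gm16572, Tuba3b and Noct were called in each alternative that tested them.

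**Figure D5:**
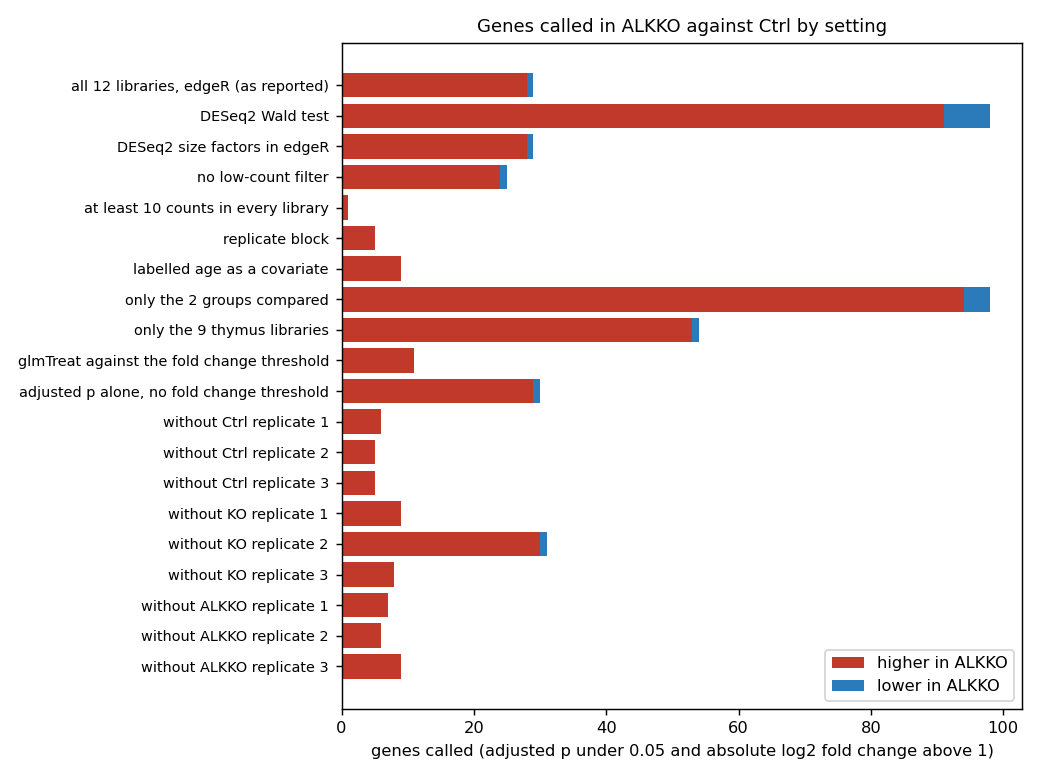
Number of genes called in ALKKO against Ctrl in the fit reported and in each alternative, with genes higher in ALKKO in red and lower in blue. The count is 29 as reported, reaches 98 with DESeq2 and with only the 2 groups compared, and falls to 1 with at least 10 counts required in every library.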

How the data were processed

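Poly(A) RNA of 12 mice was sequenced as stranded 50-nt single-end libraries. Per the labels and the study's methods, the authors trimmed reads with Trim Galore, aligned them to mm10 with STAR and deposited raw HTSeq counts per gene, without normalization. Versions, annotation release and strand setting are not given in the sources used here. HTSeq's lines for reads on no gene (43.8% to 55.3% of the total, mostly reads mapping to several places) were dropped. IDs were matched to GENCODE M21 (50376 of 50600).

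edgeR 4.0.16 in R 4.3.3 was used with TMM, filterByExpr, 1 term per group over 12 libraries, glmQLFit (robust) and glmQLFTest. Standard errors come from the F statistic. The common biological coefficient of variation was 0.436. Folds against a group with at most 3 counts in each library are lower bounds. They use 3 counts as a floor, in CPM after TMM normalization and averaged over the libraries of that group. Floors cover counting error only. Scripts were tested on simulated counts. DESeq2 1.42.0 was an alternative, Gm17910 was compared with Npm1 by blastn 2.17.0, and Python 3.11.15 was used for tables.

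Genes named are the called genes, Dnmt1, Alk, those the study names in ALKKO, and in each list the called members and the 3 with the smallest p. Exceptions chosen after their values were seen are Bcl3, Map3k8, Syce1, Tex19.1, Tex19.2, Tex13b, Gpat2, Npm1, Stat3, Immp2l, Med6, Sycp3, Spo11, Klra7, Klra17, Klri2 and Gbp3. The members, lists and rules were chosen with earlier results of these data known. The alternatives were other normalization, filters, tests, samples, covariates, the replicate block and each library left out. Methylation data were not analysed here.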

Additional observations from a re-analysis of the deposited data

How the results depend on the processing

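In ALKKO against Ctrl, the count of 29 called genes became 98 with DESeq2's Wald test, 98 with only the 2 groups compared, 54 with only the 9 thymus libraries, 11 with glmTreat, 9 with age as labelled in the model and 1 with at least 10 counts in every library (11930 genes tested). Leaving out 1 Ctrl or ALKKO mouse gave 5 to 9 genes. Without KO replicates 1, 2 and 3, added after the data were seen, it was 9, 31 and 8. The division into 25 shared and 4 transgene-only genes became 57 and 31 over the 98 genes of the 2-group fit, also added after the data were seen, and was 25 to 26 and 3 to 4 without any 1 library and with DESeq2's size factors. Cpsf4l changed sides without Ctrl replicate 1 or KO replicate 2, and Alk, at most 0.431 CPM in Ctrl and KO, did so without Ctrl replicate 3. In KO against Ctrl, the count of 3 became 42 with DESeq2, 7 with the thymus libraries and 0 with only the 2 groups (813 genes with an unadjusted p under 0.05) or at least 10 counts in every library (602 genes), and 0 to 3 without 1 mouse (0 without Ctrl replicate 3). In ALKKO against KO, the 1 gene became 24 with DESeq2, 4 with the thymus libraries and 0 with at least 10 counts in every library (201 genes with an unadjusted p under 0.05). With the replicate block, 5 genes were called in ALKKO against Ctrl, 0 in KO against Ctrl (576 with an unadjusted p under 0.05) and 1 in ALKKO against KO. Same-numbered mice did not all deviate together (correlations of -0.106 to 0.426). With 3 mice per group, these correlations cannot decide whether the numbers pair the mice. Labelled ages were alike by number in Ctrl (25, 21 and 20 wk) and ALKKO (25, 21 and 19 wk). The cause of these shifts was not tested, except that fewer genes or samples entered where stated. Of the 29 called genes, 0 changed sign and 5 kept their call throughout. Of 74 other genes examined, 23 were called by an alternative and 7 changed sign. Over all alternatives, the log2 fold change of Cdk4 ranged from -0.15 to 0.065, Myc from -0.38 to 0.036, Jchain from -0.038 to 0.55, Mb from -2.23 to 1.32, Col1a1 from -0.39 to 1.07, Dcn from -0.44 to 1.23 and Nppa from -0.20 to 1.52.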
